A study of Homo sapiens with 12 samples.

Results

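PE/CA-PJ41 is an established human cell line from a squamous cell carcinoma of the mouth. The genes it transcribes without any added blood product are described here from its 4 control libraries, which are 4 of 12 in the series. The controls are labelled only as control, with no culture time given. The other 8 libraries were treated for 48 h, some with human plasma and some with platelet-rich plasma, each added at 10%, and they were not used. Every library came from the same line, grown in culture, and was made from polyadenylated RNA. Nothing in the labels says that the 4 controls were separate cultures, so the spread quoted here may be technical. It is given as mean ± SD with n = 4 unless each library is listed, always in the order 1 to 4.

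Levels are in TPM, the deposited length-normalised unit, in which a gene's reads are divided by its effective length and scaled so that each library sums to the same total. Levels of different genes can therefore be compared within a library. A gene was called expressed when it reached 1 TPM in each of the 4 libraries. By that call 12055 of the 20375 listed genes were expressed, 59.2%, and this share is the background against which each gene group is read. A group share near 59.2% is not a trait of that group. A further 3268 genes, 16%, had 0 estimated reads in all 4 libraries. The libraries held 40166503 to 41531218 reads. For a count of 0 in a single library, 3 reads were taken as an approximate upper limit. They correspond to 0.0722 to 0.0747 on a counts-per-million (CPM) scale. These limits cover counting error only. The transcript set is not given, and 622 listed genes carry an Ensembl identifier in place of a name. Whether reads of a gene with none were assigned elsewhere was not tested. Genes were taken from 71 lists by role, naming, with a few exceptions, the 4 highest of a list and the first 4 of its members with no reads. Genes named beyond those were chosen after their values were seen.

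The squamous epithelium of the mouth is layered. Its basal cells sit on a basement membrane, divide, and carry keratins 5 and 14, the transcription factor p63 and high levels of the epidermal growth factor receptor. As cells move upward they switch keratins and make the proteins of the cornified envelope. Carcinomas of this tissue often keep a basal programme, commonly lose the cell cycle inhibitors encoded at CDKN2A, and often carry extra copies of the chromosome segment that holds CCND1.

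All 4 basal genes used to check the label were present. KRT5, the type II keratin of basal cells (chr12:52514575-52520394, GRCh38.p14), stood at 4719.6, 4531, 4832 and 5055 TPM. Its partner KRT14, a type I keratin (chr17:41582279-41586895), stood at 2155, 2326, 2668 and 2711 TPM. TP63, which encodes p63 (chr3:189596746-189897276), stood at 90.8, 101, 99.5 and 96.3 TPM. KRT5 and KRT14 were both higher in libraries 3 and 4 than in libraries 1 and 2, and TP63 showed no such order. KRT5 ranked 15th of all genes by mean level. EGFR, the epidermal growth factor receptor (chr7:55019017-55211628), stood at 143, 139, 85.6 and 94.1 TPM. Its levels in libraries 1 and 2 lay above those in libraries 3 and 4 with a gap wider than the difference within either pair.

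**Figure D1:**
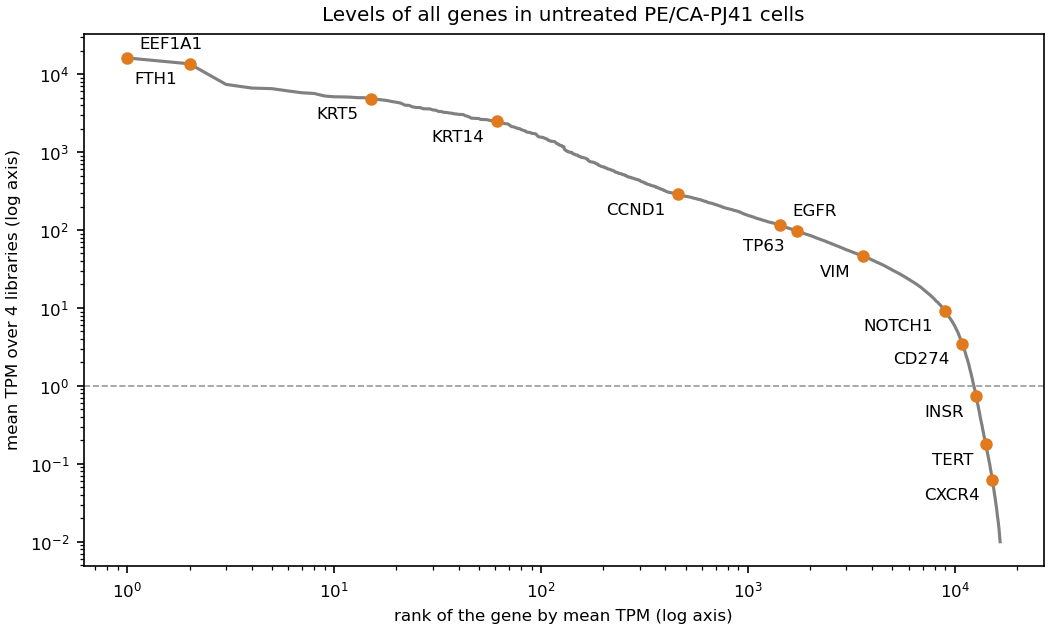
Mean TPM of each gene over the 4 libraries (vertical log axis) against its rank (horizontal log axis), for genes with a mean of at least 0.01 TPM, with 13 genes marked in orange and the dashed line at 1 TPM. KRT5 and KRT14 lie among the highest genes, EGFR and TP63 lie near 100 TPM, and INSR, TERT and CXCR4 lie under the line.

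The promoters of KRT5 and EGFR are shown with those of RUNX1 and CDKN2A because they are an abundant keratin, a receptor of intermediate level and a pair of genes with no reads. Each sequence is the RefSeq window (GRCh38.p14) of 300 bases, from 250 before to 50 after the first start listed for the gene, read 5′ to 3′ on the gene's strand. Capitals mark CG dinucleotides.
KRT5: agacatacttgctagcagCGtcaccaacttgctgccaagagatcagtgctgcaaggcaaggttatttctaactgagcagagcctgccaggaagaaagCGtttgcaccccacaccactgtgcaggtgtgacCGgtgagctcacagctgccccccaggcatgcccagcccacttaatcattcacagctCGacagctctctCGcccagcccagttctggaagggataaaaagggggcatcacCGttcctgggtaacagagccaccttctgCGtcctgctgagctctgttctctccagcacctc
EGFR: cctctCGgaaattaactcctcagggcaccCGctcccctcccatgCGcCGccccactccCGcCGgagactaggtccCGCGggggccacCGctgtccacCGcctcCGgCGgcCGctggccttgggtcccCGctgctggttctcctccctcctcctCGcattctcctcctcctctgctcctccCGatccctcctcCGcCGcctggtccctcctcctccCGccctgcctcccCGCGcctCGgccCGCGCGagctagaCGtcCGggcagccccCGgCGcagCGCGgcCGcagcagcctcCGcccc
RUNX1: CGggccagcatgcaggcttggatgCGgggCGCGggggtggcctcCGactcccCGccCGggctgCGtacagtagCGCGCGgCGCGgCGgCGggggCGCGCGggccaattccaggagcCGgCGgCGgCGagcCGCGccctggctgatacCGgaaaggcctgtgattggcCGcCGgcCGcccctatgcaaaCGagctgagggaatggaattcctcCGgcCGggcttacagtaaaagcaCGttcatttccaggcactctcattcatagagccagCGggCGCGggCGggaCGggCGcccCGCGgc
CDKN2A: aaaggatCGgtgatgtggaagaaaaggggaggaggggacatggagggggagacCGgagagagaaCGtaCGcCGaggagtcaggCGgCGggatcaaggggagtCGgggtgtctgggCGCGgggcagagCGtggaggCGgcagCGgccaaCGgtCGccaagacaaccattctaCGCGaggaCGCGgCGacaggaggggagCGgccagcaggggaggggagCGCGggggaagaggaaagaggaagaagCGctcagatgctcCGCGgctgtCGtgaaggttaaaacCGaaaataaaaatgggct
These windows lie at chr12:52520345-52520644 on the minus strand (KRT5), chr7:55018767-55019066 on the plus strand (EGFR), chr21:34888650-34888949 on the minus strand (RUNX1) and chr9:21995275-21995574 on the minus strand (CDKN2A). The KRT5 window held 7 CG dinucleotides, against 33 for EGFR, 40 for RUNX1 and 28 for CDKN2A, and the median of the 35116 windows in the table was 14. Thus both windows of genes without reads held more CG than the KRT5 window, and 1 of them more than the EGFR window shown. TATAAA was searched on both strands. None of the 4 windows shown held it, and 11.5% of all windows did. The table lists a second start for EGFR, whose window (chr7:55109589-55109888) held 1 CG and did hold TATAAA. The second CDKN2A window (chr9:21974808-21975107) held 26 CG and no TATAAA. The only window listed for RUNX1 lies inside that gene (chr21:34787801-35049302), away from its 5′ end. Which start the cells used was not measured.

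The most abundant messages were those of protein synthesis and the cytoskeleton. The 10 highest genes took 7.55 to 8.06% of TPM in a library, the 100 highest 32.5 to 33.2% and the 1000 highest 64.1 to 65%. Of the 100 highest genes, 60 have the symbol of a ribosomal protein, which leaves out those under other names, and 7 are encoded by mitochondrial DNA. Outside these, EEF1A1, the elongation factor that brings transfer RNA to the ribosome, led with 16102 ± 889 TPM. FTH1, the heavy chain of the iron store ferritin, followed with 13529 ± 202 TPM. ACTB stood at 6071 ± 183 and ACTG1 at 4979.9 ± 277 TPM, both cytoplasmic actins. The glycolytic enzymes GAPDH and PKM stood at 5639 ± 167 and 3036 ± 72.2 TPM. Of the 25 highest genes of this kind 4 are keratins, namely KRT5, KRT17 (2696 ± 171 TPM), KRT14 and KRT19 (2372 ± 85.2 TPM). GSTP1, a glutathione transferase, stood at 4581 ± 47.3 TPM, and S100A6, a small calcium-binding protein, at 3469 ± 212 TPM. ANXA2, a membrane-binding annexin, reached 2711 ± 63.8 TPM, and B2M, the light chain of class I antigen-presenting molecules, 2046 ± 134 TPM. The rest of those 25 were TPT1, PPIA, FAU, CFL1, RACK1, EEF2, EEF1G, PABPC1, PFN1, YWHAZ and TMSB4X, at 1929 to 5754 TPM. Genes such as EEF1A1, ACTB and PPIA have many near-identical copies, and how reads were divided among them is not recorded.

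The basal list was complete. All 16 members were expressed, 13 of them at 100 TPM or more. The list was chosen with earlier results of these data known and includes the 4 genes used to check the label. Besides the keratins, SFN, the epithelial protein 14-3-3 sigma, stood at 750.0, 834, 986 and 936 TPM. KRT15, a basal keratin, stood at 265 ± 9.99 TPM. The anchors to the basement membrane were also present, with ITGA6 at 180.3 ± 3.66 and ITGB4 at 301 ± 41.7 TPM for the integrin of the hemidesmosome, and COL17A1 at 225 ± 19.2 TPM for its collagen. LAMB3, a chain of laminin-332, stood at 218 ± 15.1 TPM.

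Of 31 suprabasal and cornified markers 17 were expressed, 54.8%, a share near the 59.2% of all genes. KRT6A, a keratin of oral and regenerating epithelium, stood at 878, 913, 1192 and 1146 TPM. KRT13 and KRT4, the keratin pair of the non-cornified lining mucosa, stood at 237, 266, 309 and 325 and at 195, 251, 269 and 279 TPM respectively. The kallikrein protease KLK5 stood at 204, 264, 325 and 300.4 TPM. In each of these 4 genes libraries 3 and 4 lay above libraries 1 and 2. By mean level 11 of the 31 reached 10 TPM and 4 reached 100 TPM, and not all of the 11 are named here. Among lower members IVL (involucrin) stood at 1.54 ± 0.365 TPM, FLG (filaggrin) at 0.0295 ± 0.0131 TPM and KRT1 at 0.608 ± 0.0809 TPM. TGM3, an envelope crosslinking enzyme, and CRNN (cornulin) had no reads. LORICRIN (loricrin), which is not among the 31 because its older symbol was listed, had none either. KRT6A, KRT6B (31.2 ± 3.04 TPM) and KRT6C (2.47 ± 0.622 TPM) are near-identical genes, so their split is uncertain.

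Across both keratin families 9 of 28 type I and 10 of 26 type II genes were expressed, 32.1% and 38.5%. Simple epithelial keratins were also abundant, with KRT8 at 1237, 1309, 1390.1 and 1338 TPM and KRT18 at 658, 632, 607 and 594 TPM. KRT19 lay within the range of KRT14 in these libraries, 2268 to 2448 against 2155 to 2711 TPM. EPCAM, an adhesion molecule of simple and cancer epithelia, stood at 256 ± 5.5 TPM. Of the 21 members of the simple and glandular list 7 were expressed, 33.3%. The mucin MUC5AC, the intestinal factor CDX2, and the salivary and airway secretions STATH and BPIFA1 had no reads. KRT12, the corneal keratin, and KRT24, KRT25 and KRT26 of the type I family had none, nor did KRT72 and KRT84 of type II.

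Lists of other cell types differed in how many members were expressed. Mesenchymal markers were expressed in 11 of 20, 55%, near the 59.2% of all genes, led by S100A4 at 317, 237, 202 and 215 TPM, the matrix protein SPARC at 183, 192, 171 and 184 TPM and VIM (vimentin) at 55.3, 45.4, 43 and 39.6 TPM. FN1 (fibronectin) stood at 11.9 ± 3.22 TPM. CDH2 (N-cadherin), POSTN and DES had no reads. The summed level of that list was 460 to 612 TPM, against 12707 to 13646 TPM for the basal list. Endothelial markers were expressed in 4 of 14, 28.6%, namely CDH5 (VE-cadherin) at 14.3, 10.3, 6.53 and 6.66 TPM, EGFL7 at 7.51, 7.31, 8.09 and 7.24 TPM, VWF at 9.74, 7.85, 5.81 and 5.75 TPM and ERG at 1.75, 2.14, 1.95 and 2.54 TPM. PECAM1 and KDR of the same list stood at 0.0283 ± 0.0175 and 0.036 ± 0.0115 TPM, and TIE1 had no reads.

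Leukocyte markers were expressed in 2 of 20, 10%, which were CD68 at 37.1, 42, 49.4 and 41.9 TPM, a lysosomal protein also made by other cells, and CD14 at 2.72, 1.4, 1.02 and 2.01 TPM. LYZ (lysozyme) stood at 1.04 TPM and ITGAM at 1.02 TPM. The pan-leukocyte phosphatase PTPRC stood at 0.621 ± 0.141 TPM, and CD3E, CD4 and MS4A1 had no reads. No platelet or erythroid marker of 16 was expressed, and 9 of these had no reads, PPBP, PF4, GP9 and GP1BA among them. The highest was HBA1 at 1.73, 0, 1.68 and 2.44 TPM, near-identical to HBA2, and the platelet genes ITGA2B and GP6 stood at 0.561 and 0.0771 TPM. Of 10 melanocyte and neural crest markers only MITF passed, at 6.74 ± 0.601 TPM, and TYR, SOX10 and S100B had no reads. PMEL, a melanosome protein, stood at 1.45 TPM, TYRP1 at 0.076, MLANA at 0.0699 and DCT at 0.0524 TPM. Neuronal markers were expressed in 9 of 16, 56.2%, also near the 59.2% of all genes, with TUBB3 (a beta-tubulin) at 47.2, 47.6, 54.9 and 50 TPM, NEFM (a neurofilament) at 20.1, 21, 25.8 and 26.1 TPM and SCG2 (a secretory granule protein) at 19.4, 19.3, 21.9 and 20 TPM. ENO2 stood at 14.3 ± 0.676 TPM, while the factors INSM1 and NEUROD1 and the tubulin regulator STMN2 had no reads. Of 14 muscle markers 2 passed, TNNT1 (slow troponin T) at 62.8, 62.3, 70.1 and 64.8 TPM and MB (myoglobin) at 21.6, 15.4, 12 and 15.3 TPM, ahead of ACTA1 at 0.22 and TNNT3 at 0.0763 TPM, while MYOD1, MYOG, MYH1 and MYH2 had no reads.

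**Figure D2:**
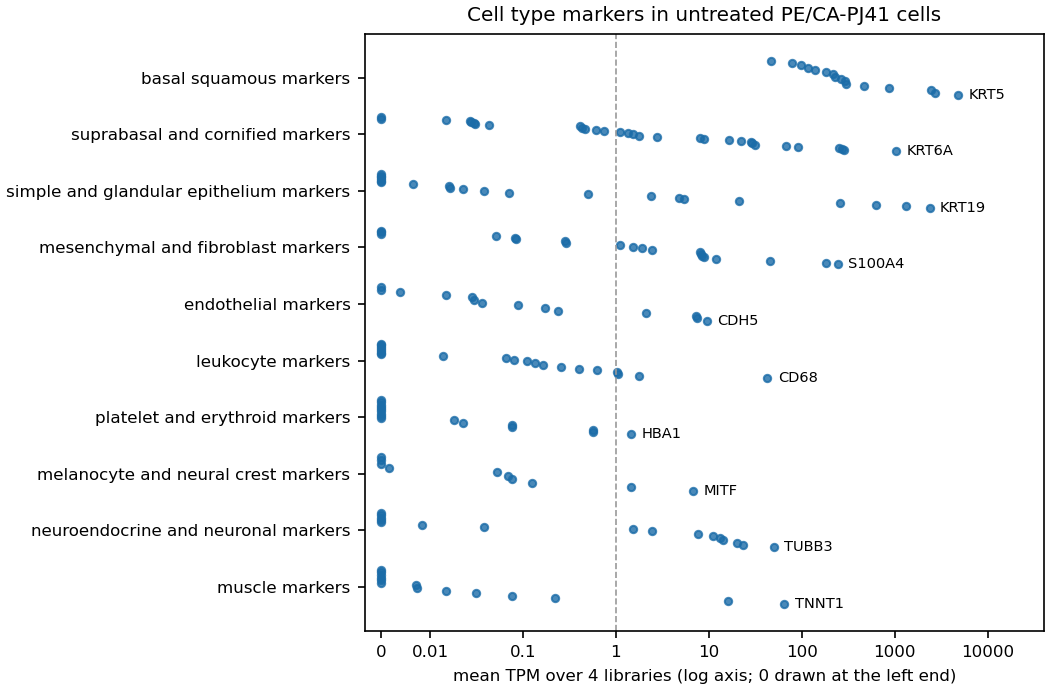
Mean TPM over the 4 libraries (horizontal log axis, 0 drawn at the left end) of each marker in the 10 cell type lists, with the highest gene of each list named and the dashed line at 1 TPM. Every basal marker lies right of the line, while the platelet and erythroid list, led by HBA1, crosses it only with that gene's mean.

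Transcription factors of squamous and barrier epithelium were present in 27 of 30, 90%. ELF3 stood at 175, 164, 151 and 154 TPM and KLF5 at 99.3, 111, 109 and 109 TPM. Both are epithelial factors and lay above TP63 in each library, although the ranges of KLF5 and TP63 overlapped. SOX2, a progenitor factor of the foregut, stood at 57.6 ± 1.4 TPM. RUNX1 (chr21:34787801-35049302) was the only one of the 30 with no reads. Its relatives RUNX2 and RUNX3 stood at 9.09, 9.53, 9.1 and 9.64 TPM and at 14.4, 16.3, 15 and 13.9 TPM, and the shared partner CBFB at 93.4 ± 2.58 TPM. The measured neighbours on either side of RUNX1, CLIC6 and SETD4, stood at 2.74 ± 0.206 and 5.74 ± 1.1 TPM.

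Factors tied to epithelial-mesenchymal transition were expressed in 6 of 14, 42.9%. SNAI2 (Slug) stood at 64.4, 68.8, 63.3 and 65.2 TPM, TWIST2 at 22.2, 21.6, 23.4 and 21.1 TPM and TWIST1 at 11.4, 11.9, 14.6 and 13.4 TPM. TBX18 stood at 10.3 ± 1.88 TPM. ZEB1, ZEB2 and SNAI1 stood at 0.0536 ± 0.0453, 0.165 ± 0.134 and 0.124 ± 0.0983 TPM, and FOXF1 had no reads. Lineage factors of other organs were expressed in 9 of 37, 24.3%, led by PAX8 at 16, 14.2, 13.6 and 12.8 TPM, PAX7 at 13, 13.1, 12.2 and 12.6 TPM and FOXA1 at 13.2, 12.3, 11.4 and 10.8 TPM. GATA6 stood at 5.83 ± 0.541 TPM, and 14 of the 37 had no reads, with CDX1, CDX2, GATA4 and GATA5 first. Factors of head and oral patterning were expressed in 24 of 33, 72.7%. This share depended on the minimum: at 5 TPM 13 of the 33 passed, against 10013 of all 20375 genes. The highest were PITX1 at 44.8 ± 2.31 TPM, PAX9 at 42 ± 3.99 TPM, FOXE1 at 31.1 ± 3.12 TPM and IRX2 at 23.6 ± 2.39 TPM, while LHX8, OTX2 and ALX1 had no reads.

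HOX genes give cells their position along the body axis and lie in 4 clusters, and the head forms largely without them. In the HOXA cluster every gene named here passed, from HOXA2 at 1.15 ± 0.0896 TPM to HOXA7 at 25.7, 27.7, 25.4 and 25.2 TPM, with HOXA10 at 23.4 ± 0.591, HOXA3 at 19.6 ± 3.74 and HOXA9 at 17.4 ± 2.71 TPM. HOXA4 stood at 4.03, HOXA5 at 9.34, HOXA6 at 5.72, HOXA11 at 6.25 and HOXA13 at 1.97 TPM. In the HOXB cluster 2 of 10 passed, 20%, against 59.2% of all genes. These were HOXB7 at 22.1, 18.6, 19.2 and 18.8 TPM and HOXB9 at 5.95, 6.26, 5.54 and 5.69 TPM. HOXB8, between these, stood at 0.557, 0.867, 0.67 and 0.611 TPM, and HOXB1 had no reads. HOXB3 stood at 1.18, HOXB13 at 0.787, and HOXB2, HOXB4, HOXB5 and HOXB6 at 0.0136 to 0.0828 TPM.

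In the HOXC cluster 7 of 9 passed, 77.8%, against 59.2% of all genes. At a minimum of 5 TPM 4 of the 9 did, against 10013 of all 20375 genes. The 7 were HOXC13 at 11.7 ± 1.09 TPM, HOXC10 at 10.6 ± 1.13 TPM, HOXC6 at 9.88 ± 0.496 TPM, HOXC4 at 9.34 ± 0.979 TPM, HOXC11 at 5.07 ± 0.374 TPM, HOXC9 at 3.6 ± 0.515 TPM and HOXC5 at 1.29 ± 0.107 TPM. The ranges of the first 4 ran into each other. HOXC8 stood at 0.715 and HOXC12 at 0.0098 TPM. In the HOXD cluster 5 of 9 passed, 55.6%, near the 59.2% of all genes. The 5 were HOXD10 at 14.2 ± 0.973 TPM, HOXD11 at 11.3 ± 1.53 TPM, HOXD13 at 10 ± 0.412 TPM, HOXD9 at 6.18 ± 0.653 TPM and HOXD8 at 2.91 ± 0.673 TPM. HOXD12, which lies between HOXD11 and HOXD13, stood at 0.622, 0.503, 0.682 and 0.372 TPM, under 1 in every library. HOXD1, HOXD3 and HOXD4 stood at 0.931, 0.347 and 1.15 TPM.

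**Figure D3:**
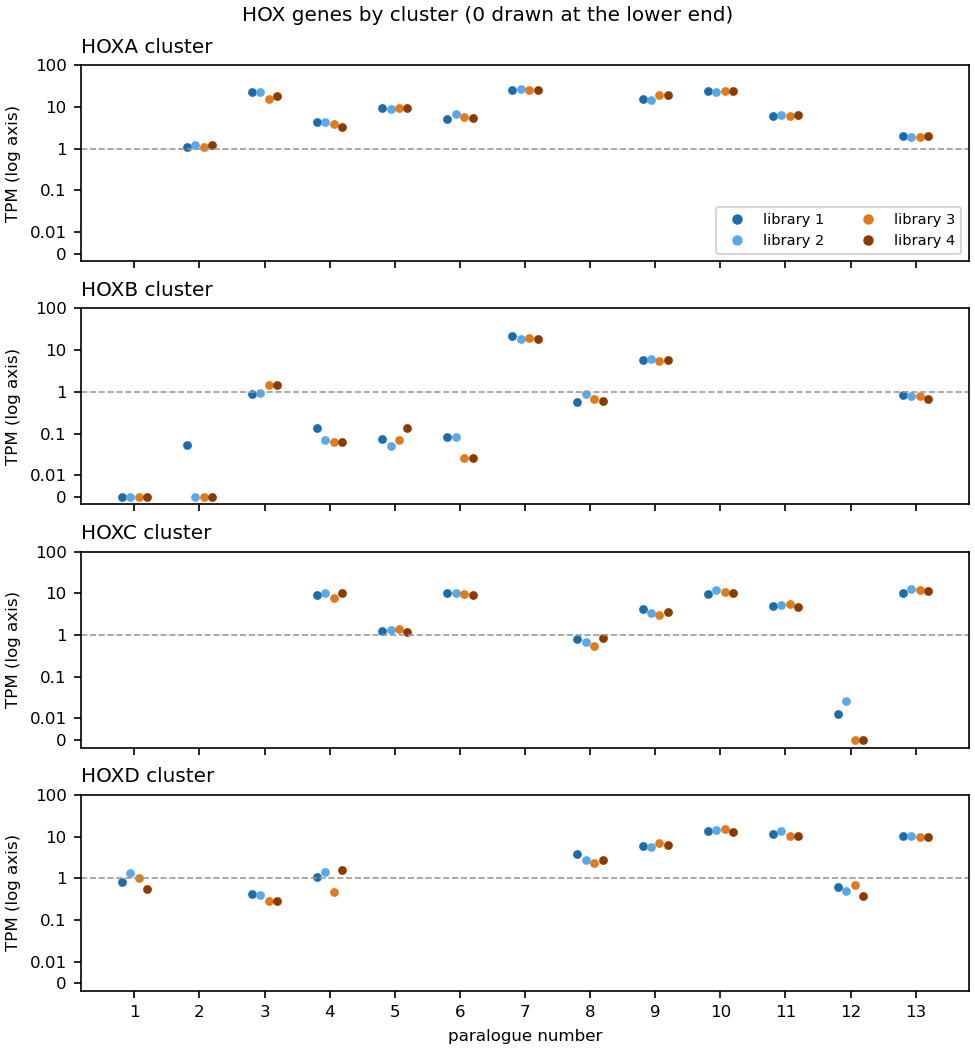
TPM of the HOX genes described here in each of the 4 libraries (vertical log axis, 0 drawn at the lower end), by paralogue number and cluster, with the dashed line at 1 TPM. The HOXA points plotted all lie above the line, whereas in HOXB only HOXB7 and HOXB9 do so in every library.

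Receptor tyrosine kinases carry growth signals across the membrane, and the ERBB family is the best known in squamous carcinoma. Of the 4 ERBB genes 3 were expressed, in the order EGFR, ERBB2 and ERBB3. ERBB2 stood at 67.8, 72.6, 61.8 and 61 TPM, and its highest library lay under the lowest for EGFR. ERBB3 stood at 25, 19.5, 15.4 and 17.7 TPM and ERBB4 at 0.00648, 0.0134, 0 and 0.00624 TPM, so that ERBB4 had at most 4 reads in a library. Of 37 other receptor tyrosine kinases 16 were expressed, 43.2%. DDR1, a collagen receptor, was the highest at 529.7, 501, 426 and 437 TPM, followed by PTK7 at 134, 141, 139 and 135 TPM, RYK at 81.1, 81.2, 81.1 and 79.9 TPM and FGFR3 at 63.7, 66.7, 70.9 and 69.9 TPM. PTK7 lay within the range of EGFR. FGFR2 stood at 65.3 ± 6.25 TPM and FGFR1 at 0.999 ± 0.377 TPM. The insulin-like growth factor receptor IGF1R stood at 26.5, 26.9, 19.5 and 24.1 TPM while the insulin receptor INSR stood at 0.653, 1.05, 0.357 and 0.883 TPM. MET, the receptor for hepatocyte growth factor, stood at 61.7 ± 5.07 TPM and AXL at 52.1 ± 2.86 TPM. TIE1 had no reads.

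**Figure D4:**
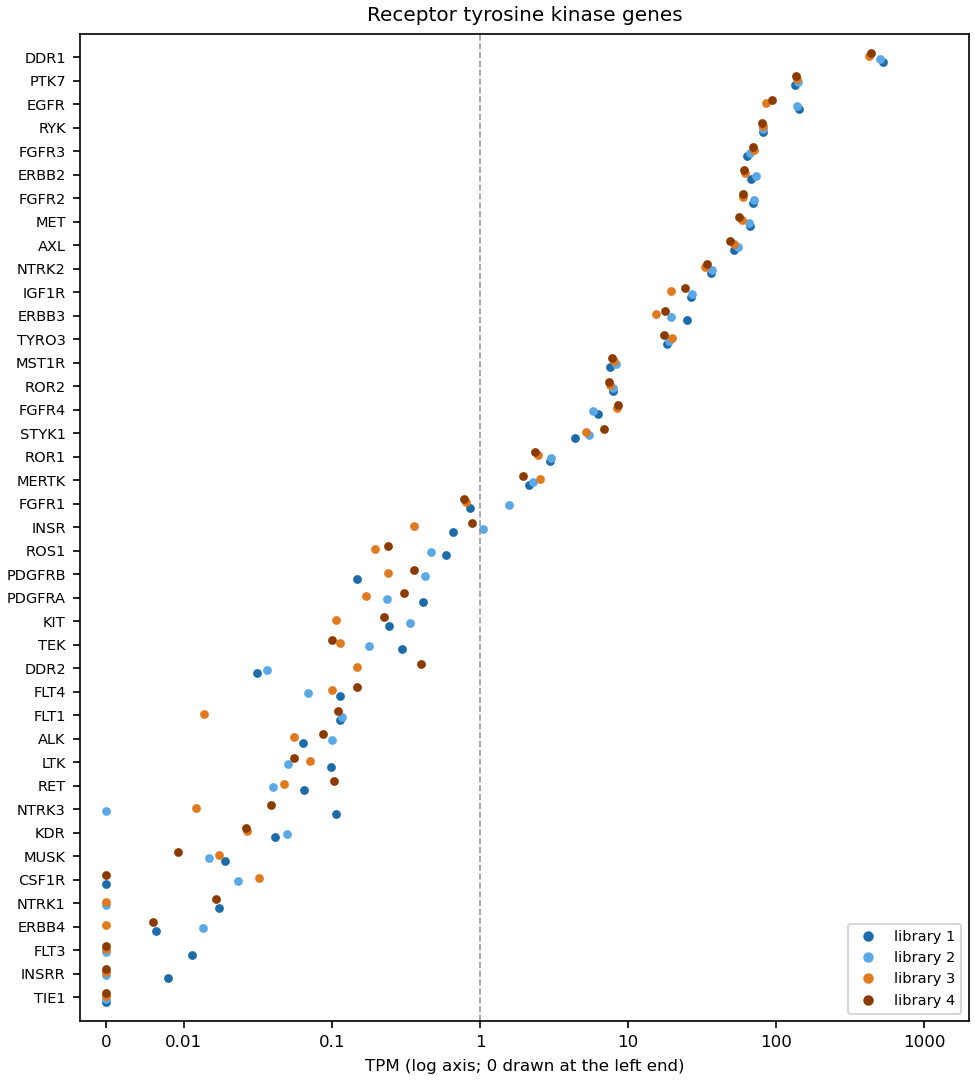
TPM in each of the 4 libraries (horizontal log axis, 0 drawn at the left end) of the 4 ERBB genes and 37 other receptor tyrosine kinase genes, ordered by mean, with the dashed line at 1 TPM. DDR1 lies highest and TIE1 lowest, and the EGFR points fall into an upper pair (libraries 1 and 2) and a lower pair.

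Of 14 Eph receptors, which bind ephrins on neighbouring cells, 7 were expressed, 50%. EPHA2 led at 140.5, 152, 139 and 131 TPM, followed by EPHB2 at 58.4 ± 3.95 TPM, EPHB4 at 38.6 ± 2.16 TPM and EPHB3 at 24.9 ± 1.58 TPM, and EPHA7 had no reads. Of their 8 ligands 6 passed, EFNB1 at 43.9 ± 3.94 TPM, EFNB2 at 36.3 ± 3.0 TPM, EFNA1 at 29.4 ± 2.19 TPM, EFNA4 at 15 ± 0.59 TPM, EFNA5 at 4.21 ± 0.895 TPM and EFNA3 at 2.22 ± 0.231 TPM. EFNB3 and EFNA2 stood at 0.183 and 0.0661 TPM.

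Among ligands, 8 of 11 members of the EGF family were expressed, 72.7%. TGFA stood at 61, 58.7, 61.3 and 59.7 TPM, AREG (amphiregulin) at 38.1, 42.9, 53.7 and 49.5 TPM, EREG (epiregulin) at 23.4, 26.5, 32.5 and 31.3 TPM and NRG1 (neuregulin 1, which binds ERBB3) at 25.3, 24.8, 25.5 and 24.5 TPM. NRG4 stood at 22 ± 3.16, HBEGF at 10.6 ± 1.57, EPGN at 3.41 ± 0.42 and BTC at 2.31 ± 0.94 TPM. EGF itself stood at 0.754 ± 0.103 TPM, NRG2 at 0.0475 ± 0.0162 TPM, and NRG3 had no reads. Thus the line transcribed EGFR together with several of its ligands. AREG and EREG were lowest in library 1 and TGFA hardly varied.

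Of 38 ligands and binding proteins of the FGF, PDGF, VEGF, IGF and related groups 19 were expressed, 50%. FGFBP1, which releases FGFs from the matrix, stood at 597, 649, 741 and 709 TPM, ARTN (artemin) at 266, 279, 327 and 296 TPM, GAS6 (the ligand of AXL) at 109, 111, 105 and 99.2 TPM and VEGFA at 70.2, 70.1, 79.9 and 75.9 TPM. FGF4 and FGF10 had no reads. Of 19 Wnt ligands 10 were expressed, 52.6%, with WNT7B at 337, 343, 292 and 297 TPM. The next were WNT10A at 44.9 ± 4.19, WNT4 at 29.5 ± 1.61 and WNT16 at 18.3 ± 1.36 TPM, so that no other Wnt came near WNT7B. WNT1 and WNT8A had no reads. Frizzled receptors and Wnt coreceptors were expressed in 13 of 17, 76.5%, with FZD6 at 176 ± 4.26 TPM, LRP5 at 117 ± 4.57 TPM, LGR4 at 29.9 ± 2.02 TPM and FZD1 at 23.6 ± 1.0 TPM, and LGR5, an intestinal stem cell marker, had no reads.

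Receptors of the TGF-beta and BMP group were expressed in 10 of 15, 66.7%, with TGFBR2 at 52.5 ± 0.959 TPM, ACVR1 at 25.3 ± 2.71 TPM, TGFBR1 at 21.7 ± 0.541 TPM and ACVR1B at 21.5 ± 1.94 TPM, and AMHR2 had no reads. Of 31 ligands of this superfamily 10 were expressed, 32.3%, namely BMP1 (a procollagen protease by function) at 87.8 ± 4.69 TPM, BMP4 at 33.1 ± 2.6 TPM, BMP7 at 30.9 ± 1.39 TPM and TGFB1 at 29.2 ± 1.58 TPM as the highest. BMP10, GDF3, GDF6 and GDF10 had no reads. Of the 10 Notch and Hedgehog receptors 7 were expressed, NOTCH3 at 45.1, 53.1, 44.7 and 48.9 TPM, NOTCH2 at 14.5, 13.8, 9.23 and 9.48 TPM, NOTCH1 at 9.56, 10.7, 8.11 and 8.32 TPM and SMO at 8.07, 9.07, 8.12 and 8.02 TPM being the highest, and NOTCH4 standing at 0.188 TPM. The Hedgehog receptor PTCH1 stood at 1.47, 2.36, 1.21 and 1.47 TPM, and the co-receptors GAS1, BOC and CDON stood at 3.54, 2.74 and 1.1 TPM. Of 8 ligands JAG1 at 44.4 ± 3.27 TPM, JAG2 at 41 ± 3.35 TPM and DLL1 at 23.1 ± 2.47 TPM passed, and the other 5 were under 0.2 TPM: DLL3 at 0.169, DLL4 at 0.165, SHH at 0.133, IHH at 0.0554 and DHH with no reads.

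Nuclear receptors, which are transcription factors switched by hormones, vitamins and lipids, were expressed in 28 of 48, 58.3%, close to the background. RARG, the retinoic acid receptor typical of skin, stood at 115, 119, 123 and 137 TPM, NR1H2 (a sterol sensor) at 70.6 ± 2.67 TPM, RXRA at 62.5 ± 2.06 TPM and NR2F2 at 61.4 ± 7.02 TPM. The glucocorticoid receptor NR3C1 stood at 42 ± 3.09 TPM and the oestrogen receptor ESR1 at 1.3 ± 0.154 TPM. PGR, NR1H4, NR1I2 and NR1I3 had no reads.

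Of 22 chemokine receptors only ACKR3, an atypical receptor that takes up CXCL12 without G protein signalling, was expressed, 4.55%, at 123, 143, 129.9 and 144 TPM. With a minimum of 10 reads in each library in place of 1 TPM, 5 of the 22 passed, and at 0.5 TPM 2 did. CXCR4, the other receptor of CXCL12, stood at 0.0632, 0.0649, 0 and 0.122 TPM, and CXCR2 at 0.682, 2.27, 0.999 and 1.79 TPM failed in libraries 1 and 3. CCR3 and ACKR2 stood at 0.589 and 0.31 TPM. CCR8, CXCR1 and CXCR5 had no reads. Chemokines themselves were expressed in 13 of 35, 37.1%, led by CXCL16 at 64.2 ± 4.32 TPM, CX3CL1 at 31.8 ± 1.64 TPM, CCL2 at 28.5 ± 4.94 TPM and CXCL1 at 27.2 ± 4.24 TPM. CXCL9, CXCL12, CCL4 and CCL11 had no reads.

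Cytokine receptors were expressed in 25 of 46, 54.3%, with IL10RB at 70.4 ± 2.07 TPM, IL6ST (the shared receptor gp130) at 58.5 ± 4.5 TPM, IL4R at 42.1 ± 2.32 TPM and IL13RA1 at 41 ± 1.2 TPM, and IL5RA and CSF3R had no reads. All 5 interferon receptor genes were expressed, IFNGR1 at 84.8 ± 1.88 TPM, IFNGR2 at 73.6 ± 1.77 TPM, IFNAR1 at 52.7 ± 1.62 TPM, IFNLR1 at 18 ± 1.02 TPM and IFNAR2 at 15.5 ± 0.635 TPM. Interferon-stimulated genes were expressed in 31 of 34, 91.2%, with IFITM3 at 595, 557, 536 and 485 TPM, IFI27 at 629, 520.0, 468 and 429 TPM, IFITM1 at 233 ± 30.7 TPM and IFITM2 at 171 ± 17.1 TPM. The 13 interferon alpha genes listed had no reads. TNF receptors were expressed in 18 of 28, 64.3%, with LTBR at 221 ± 7.12 TPM, TNFRSF12A at 217 ± 21.1 TPM, TNFRSF1A at 91.6 ± 3.38 TPM and TNFRSF21 at 59.1 ± 1.11 TPM. TNFRSF13B, CD27 and EDA2R had no reads.

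Interleukins, TNF family ligands and colony factors were expressed in 18 of 44, 40.9%, with the death ligand TNFSF10 (TRAIL) at 150.1, 145, 128 and 137 TPM, IL18 at 85.2 ± 3.46 TPM, TNFSF9 at 45.7 ± 2.24 TPM and IL1RN at 38.6 ± 2.89 TPM, and with no reads for IL17A, CSF3 and IFNG. Nucleic acid and microbial sensors passed in 14 of 22, 63.6%, with LY96 at 75.4 ± 8.4 TPM, STING1 at 45.8 ± 6.61 TPM, CGAS at 42.4 ± 1.24 TPM and CLEC7A at 27.3 ± 5.29 TPM, and TLR8 had no reads. LY96 is the partner of TLR4, which stood at 0.883 ± 0.162 TPM. Receptors for proteases, lipids and nucleotides passed in 17 of 32, 53.1%, with F2RL1 (a receptor cut by trypsin-like proteases) at 124, 123, 112 and 111 TPM, ADORA2B at 51.6 ± 6.62 TPM, S1PR5 at 38.6 ± 1.35 TPM and F2R (the thrombin receptor) at 28.1 ± 2.1 TPM, and PTGIR and PTGFR had no reads. Receptors for neurotransmitters and hormones passed in 12 of 51, 23.5%, among the highest BDKRB2 at 17.9 ± 1.16 TPM, ADRA1B at 16.3 ± 3.17 TPM and HRH1 at 13.7 ± 1.46 TPM, and 13 had no reads, with ADRB3, DRD3, DRD5 and HTR1A first.

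Adhesion gene families were expressed in part, and the shares of integrin alpha genes and cadherins at 1 TPM lay under the 59.2% of all genes. With a minimum of 10 reads in each library instead, 13 of 18 integrin alpha genes passed, against 13583 of all 20375 genes. By that call their share was not under that of all genes, while 8 of 19 cadherins passed. Integrin alpha genes were expressed in 7 of 18, 38.9%, with ITGA3 at 165 ± 7.41 TPM, ITGAV at 91.9 ± 13.8 TPM and ITGA5 at 31.2 ± 0.46 TPM after ITGA6. Of the 8 integrin beta genes 6 were expressed, ITGB4, ITGB1 at 221 ± 3.28 TPM, ITGB5 at 66.3 ± 2.56 TPM, ITGB6 at 55.5 ± 2.44 TPM, ITGB8 at 51.9 ± 6.92 TPM and ITGB2 at 2.76 ± 0.51 TPM, while ITGB3 and ITGB7 stood at 0.245 and 0.382 TPM. Cadherins passed in 7 of 19, 36.8%: CDH3 (P-cadherin) at 149, 147, 132 and 131 TPM, CDH13 at 109, 98.5, 82.8 and 82.3 TPM and CDH1 (E-cadherin) at 104, 107, 77 and 78.9 TPM led, and CDH11 stood at 9.94 ± 2.54 TPM. CDH1 and CDH13 overlapped in range. CDH12, CDH19 and CDH20 had no reads, like CDH2.

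Desmosome and tight junction genes passed in 24 of 31, 77.4%, with JUP (plakoglobin) at 627 ± 30.7 TPM, PKP1 (plakophilin 1) at 226 ± 13.8 TPM, F11R at 159 ± 11.5 TPM and CLDN4 at 159 ± 6.03 TPM. Connexins passed in 10 of 16, 62.5%, with GJB2 at 81.9 ± 20.7 TPM, GJB6 at 57.9 ± 6.97 TPM and GJA1 at 24.6 ± 1.44 TPM, and GJD2 had no reads. Collagens and laminins passed in 24 of 43, 55.8%, with LAMB1 at 56.7 ± 9.17 TPM, and COL11A1 had no reads. Mucins passed in 4 of 16, 25%, namely MUC20 at 68.2 ± 5.91 TPM, MUC15 at 7.64 ± 1.6 TPM, MUC16 at 5.46 ± 1.52 TPM and MUC1 at 4.78 ± 0.996 TPM. MUC6 and MUC17 had no reads, like MUC5AC.

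Targets of antibody drugs were expressed in 26 of 37, 70.3%. F3 (tissue factor, which starts coagulation) stood at 608, 635, 683 and 662 TPM and CD44, a hyaluronan receptor, at 529.9, 529.7, 491 and 494 TPM, and EPCAM is on the same list. CLDN18 and MS4A1 had no reads. Immune checkpoint genes passed in 21 of 30, 70%, with LGALS3 at 484 ± 38.5 TPM, HLA-E at 261 ± 19 TPM, CD47 at 114 ± 3.98 TPM and NT5E at 101 ± 8.97 TPM. CD276 (B7-H3) stood at 98.6, 105, 100.4 and 95.7 TPM and CD274 (PD-L1) at 3.61, 3.69, 3.17 and 3.44 TPM, and CD80 and IDO2 had no reads. Antigen presentation genes passed in 17 of 26, 65.4%. The class I genes HLA-C and HLA-B stood at 1142, 1051, 979 and 953 and at 849, 754, 641 and 637 TPM, although reads of these similar and variable genes may be divided wrongly. The class II gene HLA-DRA, its partner CD74 and the class II activator CIITA stood at 0.121 ± 0.0573, 0.161 ± 0.117 and 0.0831 ± 0.0201 TPM.

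Stem and progenitor markers of epithelia passed in 18 of 22, 81.8%, with ALDH3A1 at 461 ± 61.3 TPM and CD24 at 369.6 ± 29.7 TPM besides CD44. Proteases of the matrix and the plasminogen system passed in 25 of 44, 56.8%. PLAU (urokinase) stood at 640.2, 659, 699 and 628 TPM, TIMP1 at 187 ± 17.3 TPM and MMP14 at 142 ± 23.8 TPM, and F7, F9, MMP8 and MMP27 had no reads. PLAUR, the urokinase receptor, stood at 12.4 ± 1.12 TPM. Receptors for lipid and nutrient uptake passed in 14 of 21, 66.7%, with M6PR at 166 ± 5.33 TPM, LRP10 at 101 ± 7.91 TPM and TFRC at 78.5 ± 3.91 TPM, and FOLR2 had no reads. Among 27 secreted antimicrobial and S100 proteins 12 passed, 44.4%. S100A10, S100A11 and S100A2 stood at 1581 ± 43.1, 1550.0 ± 48.2 and 1470.1 ± 91.2 TPM, while the inflammatory pair S100A8 and S100A9 stood at 0.231 ± 0.267 and 6.2 ± 0.679 TPM, and S100A12, DEFB4A, PGLYRP1 and BPI had no reads.

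Tumour suppressors known in squamous carcinoma were expressed in 25 of 30, 83.3%, and 3 of the 30 had no reads: CDKN2A (chr9:21967752-21995324), CDKN2B (chr9:22002903-22009313) and CSMD1. CDKN2A encodes p16 and ARF, and CDKN2B encodes p15. Among the highest members, with B2M, were SMAD3 at 165 ± 5.84 TPM and AJUBA at 152 ± 10.4 TPM. RB1, whose protein p16 protects, stood at 80.2, 82.3, 82 and 80.8 TPM. SMAD4, the shared SMAD, stood at 3.88, 3.56, 3.0 and 4.0 TPM. MTAP, the neighbour of CDKN2A (chr9:21802636-21941115), stood at 59.8, 61.5, 70.5 and 65.2 TPM, so that the run without reads did not include it. On the other side DMRTA1 stood at 0.153 ± 0.036 TPM and the gene after it, ELAVL2, at 14.9 ± 0.33 TPM. Whether the segment is lost or silent cannot be told apart from RNA.

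Oncogenes of squamous carcinoma were expressed in 29 of 32, 90.6%. CTTN (cortactin, an actin regulator, chr11:70398529-70436575) stood at 704, 713, 695 and 697 TPM, CCND1 (cyclin D1, chr11:69641156-69654474) at 271, 299, 297 and 285 TPM, CDK4 at 273 ± 5.5 TPM and FADD (an adaptor of death receptors) at 226 ± 6.05 TPM. Between CCND1 and CTTN lie LTO1 at 87.9 ± 3.69 TPM, ANO1 (a chloride channel) at 202 ± 8.94 TPM and PPFIA1 at 178 ± 2.34 TPM. The 3 FGF genes of that stretch were near or at 0, with FGF19 at 0.221 ± 0.094 TPM, FGF3 at 0.0218 ± 0.0437 TPM and FGF4 with no reads. The next gene outside, SHANK2, stood at 0.959 ± 0.0743 TPM. Copy number was not measured. TERT, the catalytic subunit of telomerase, stood at 0.191, 0.209, 0.191 and 0.119 TPM.

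A second run without reads was seen around TUSC3, chosen after its values were seen. DLC1, C8orf48, SGCZ and TUSC3 are consecutive measured genes with no reads, MSR1 stood at 0.0832 ± 0.0811 TPM, and FGF20 and MICU3 again had none. On the DLC1 side TRMT9B was also low, at 0.0509 ± 0.0071 TPM, and LONRF1 beyond it stood at 5.63 ± 0.731 TPM. On the other side CNOT7, beyond ZDHHC2, stood at 55.3 ± 9.19 TPM. ZDHHC2, beside MICU3, stood at 0.433, 1.83, 1.05 and 1.43 TPM, under 1 in library 1 alone. Loss of a segment and silence of its genes cannot be told apart from RNA.

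**Figure D5:**
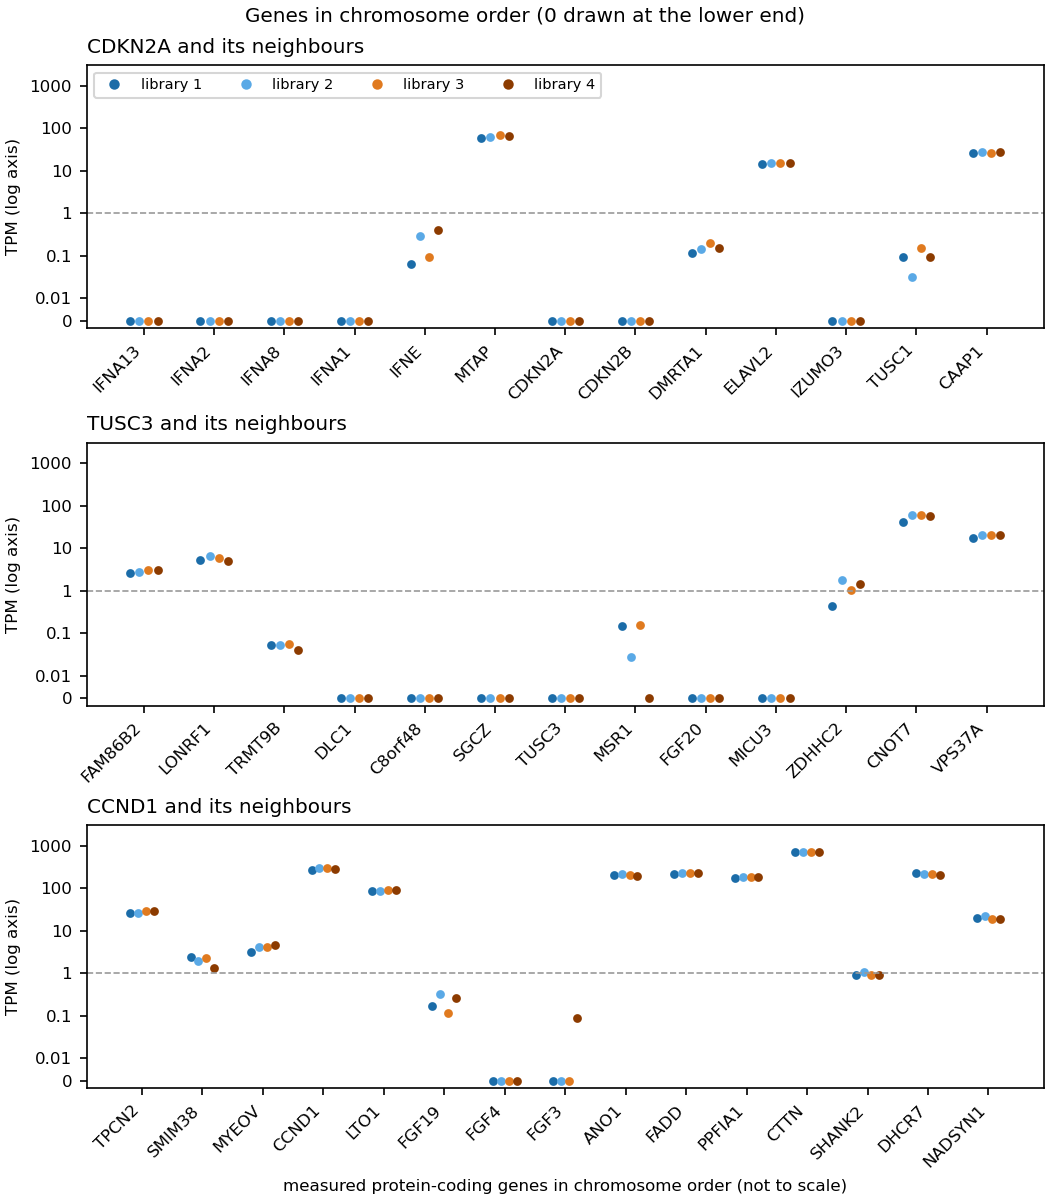
TPM in each of the 4 libraries (vertical log axis, 0 drawn at the lower end) of measured protein-coding genes in chromosome order around CDKN2A, TUSC3 and CCND1, with the dashed line at 1 TPM and distances not to scale. CDKN2A and CDKN2B have no reads beside MTAP, TRMT9B to MICU3 are at or near 0, and CCND1, ANO1, FADD, PPFIA1 and CTTN all exceed 100 TPM.

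Several other genes with no reads were likewise chosen after their values were seen. They include MGMT, the repair enzyme that removes alkyl groups from guanine, MGST1, a membrane glutathione transferase, the cell adhesion gene CADM1, and the imprinted genes SNRPN, NDN, MAGEL2, PEG3 and ZIM2. UBE3A, near SNRPN, stood at 53.3 ± 7.71 TPM. Other imprinted genes were present, with GNAS at 836 ± 36.8 TPM, CDKN1C at 10.3 ± 0.596 TPM and MEST at 10.2 ± 0.577 TPM.

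Of 51 cancer-testis antigens, normally limited to the germ line, only MAGEA4 was expressed, 1.96%, at 70.9, 70.1, 73.5 and 71.7 TPM, and 33 of the 51, 64.7%, had no reads, with MAGEA1, MAGEA2, MAGEA2B and MAGEA3 first. The next highest were SSX4 at 0.405 ± 0.158 TPM, BRDT at 0.162 ± 0.115 TPM and TEX14 at 0.117 ± 0.0216 TPM. Other families limited to particular tissues were likewise low. None of 392 olfactory receptors was expressed and 290 had no reads, none of 24 bitter taste receptors and 39 beta defensins was, and 1 of 94 hair keratin associated proteins was, KRTAP4-1 at 2.75 ± 0.525 TPM. All 48 NDUF genes, subunits and assembly factors of respiratory complex I, were expressed.

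Of 37 cell cycle genes 34 were expressed, 91.9%, with PCNA, the sliding clamp of DNA polymerase, at 397 ± 19.7 TPM and CCNB1 (cyclin B1) at 251 ± 27.9 TPM, and the 2 without reads were again CDKN2A and CDKN2B. Apoptosis regulators passed in 33 of 39, 84.6%, with BAX at 169 ± 3.31 TPM, MCL1 at 113 ± 5.37 TPM, BAD at 107 ± 4.23 TPM and BIRC5 at 99.9 ± 3.98 TPM, while BCL2 stood at 0.661 ± 0.109 TPM and CASP5 had no reads. All 30 proteasome and chaperone genes were expressed, HSP90AA1 at 1879 ± 152 TPM, UBB at 1408 ± 48.3 TPM and HSPB1 at 1352 ± 154 TPM leading. All 29 targets of the antioxidant factor NRF2 were expressed, with PRDX1 at 932 ± 48.8 TPM, GPX4 at 823 ± 56.6 TPM and FTL at 744 ± 37.9 TPM after FTH1. Of the 29, 25 reached 10 TPM and 12 reached 100 TPM, with a median of 56.8 TPM.

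Sterol and fatty acid synthesis was expressed in 36 of 37, 97.3%, with a median of 175 TPM. SCD, which desaturates fatty acids, stood at 1499, 1431, 1355 and 1341 TPM, FDPS, of the mevalonate pathway, at 1269, 1241, 1327 and 1287 TPM, ACLY, which makes cytosolic acetyl-CoA, at 662, 623, 664 and 649 TPM and FASN, the fatty acid synthase, at 508, 525, 450.1 and 448 TPM. Glycolysis and lactate genes passed in 23 of 33, 69.7%, with ENO1 at 1868 ± 70.2 TPM and ALDOA at 1559 ± 51.4 TPM after GAPDH and PKM. HK3 and PGK2 had no reads. The glucose transporter SLC2A1 stood at 210.4 ± 11.3 TPM. Enzymes of serine, glycine and folate metabolism passed in 19 of 24, 79.2%, with AHCY at 328 ± 8.38 TPM, PHGDH at 275 ± 9.17 TPM, TYMS at 251 ± 12.8 TPM and SHMT2 at 246 ± 17.7 TPM.

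Gluconeogenesis, glycogen and urea cycle genes passed in 12 of 28, 42.9%, with ASS1, which makes argininosuccinate, at 277 ± 23.1 TPM, PYGL at 273 ± 8.11 TPM, PC at 123 ± 5.64 TPM and PYGB at 90.6 ± 6.12 TPM, and 8 of the 28, 28.6%, had no reads, with OTC and ARG1 first. Retinoid and steroid metabolism passed in 21 of 33, 63.6%, with ALDH1A3 at 266 ± 30.1 TPM, RDH11 at 151 ± 2.16 TPM and FABP5 at 148 ± 30.1 TPM, and CRABP1, RBP4 and HSD11B1 had no reads. Cytochrome P450 genes passed in 20 of 43, 46.5%. CYP51A1, of sterol synthesis, stood at 152 ± 4.9 TPM, CYP1A1 at 137, 122, 93 and 110.1 TPM, CYP1B1 at 37.6 ± 2.62 TPM and CYP2S1 at 31.9 ± 4.32 TPM, and CYP2A6 and CYP11B1 had no reads. Drug transporters passed in 17 of 30, 56.7%, with SLCO3A1 at 43.5 ± 2.44 TPM, SLC29A2 at 67.9 ± 2.19 TPM, ABCC1 at 38.1 ± 5.07 TPM and ABCC5 at 37.3 ± 4.23 TPM. SLCO2B1 had no reads.

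The libraries agreed closely in rank, with Spearman's rho of 0.989 to 0.990 across genes, which are not independent replicates, but they fell nearer to each other in pairs. Over 12187 genes with at least 50 reads in each library, the mean squared difference was 8.04 times counting noise between libraries 1 and 2 and 3.73 times between 3 and 4. Across these pairs it was 18.9 to 37.1 times. Mitochondrially encoded genes took 1.09, 1.89, 3.63 and 3.62% of TPM in libraries 1 to 4, and ribosomal protein genes 21.1, 20.5, 19.5 and 19.7%. No label gives a batch, and the part of this difference in levels such as that of EGFR was not tested. The median spread between libraries fell with level: the SD was 13.4% of the mean at 1 to 10 TPM, 6.21% at 10 to 100 TPM and 3.84% at 1000 TPM and above.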

How the data were processed

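RNA from 4 control libraries of PE/CA-PJ41 was extracted with a column kit, captured by its poly(A) tail and made into libraries, per the labels' protocols. Salmon and the hg38 build are named in the submitters' processing notes. Neither their versions nor the transcript set or strand setting are given in the sources used here. Each deposited file gives TPM, an estimated read count and an effective length per gene with decimal commas. The authors' TPM values were used as deposited, and the deposited estimated counts, which are not whole numbers, gave depth and genes with no reads. Library totals were 40166503 to 41531218 reads.

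Means and SDs over 4 libraries were computed in Python 3.11.15 with pandas 2.3.3. No groups were compared, so no test between groups was made, and Dixon's criterion was applied to the 4 values of each named gene, list sum and library measure. Expressed means at least 1 TPM in each library. The members and gene lists were chosen with earlier results of these data known. Ribosomal protein and mitochondrial genes were recognised by symbol. Named genes were the 25 highest outside ribosomal protein and mitochondrial genes, the 4 highest and up to 4 without reads of each list, every member of short lists, and KRT5, KRT14, TP63 and EGFR. Some others were chosen after their values were seen. A few genes under the rule are not reported here. Of 20375 genes 15404, 75.6%, matched a RefSeq promoter by symbol, so no comparison of promoters over genes was made. Alternatives were other minimums, the mean, a minimum of 10 reads, rescaling, and leaving out each library. The scripts were tested on simulated data with counting noise alone, which is less spread than these libraries showed. 8 libraries of treated cells were not analysed here.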

Additional observations from a re-analysis of the deposited data

Results flagged for a closer look

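For 409 sets of 4 library values, the libraries were searched for 1 that stood apart from the other 3 by more than Dixon's critical value at 95%. There were 20 such values, and chance alone flags about 1 in 20 sets, or 20.4. CBFB was highest in library 2 at 97.2 TPM, against 91.6 to 92.5 TPM in the others. CCR3 was highest in library 3 at 0.83 TPM, against 0.491 to 0.532 TPM in the others. CNOT7 was lowest in library 1 at 41.6 TPM, against 58.3 to 61.1 TPM in the others. DCT was highest in library 3 at 0.201 TPM, against 0 to 0.00797 TPM in the others. EPGN was lowest in library 1 at 2.78 TPM, against 3.6 to 3.66 TPM in the others. FGF3 was highest in library 4 at 0.0873 TPM, against 0 in the others. FGFR1 was highest in library 2 at 1.56 TPM, against 0.775 to 0.852 TPM in the others. GAS1 was highest in library 2 at 3.85 TPM, against 3.4 to 3.48 TPM in the others. HBEGF was highest in library 3 at 13 TPM, against 9.71 to 9.97 TPM in the others. HOXB2 was highest in library 1 at 0.0543 TPM, against 0 in the others. HOXB4 was highest in library 1 at 0.133 TPM, against 0.0638 to 0.0684 TPM in the others. IHH was lowest in library 2 at 0.0179 TPM, against 0.0669 to 0.0696 TPM in the others. LYZ was lowest in library 1 at 0.818 TPM, against 1.09 to 1.14 TPM in the others. NRG4 was lowest in library 1 at 17.2 TPM, against 23.3 to 23.9 TPM in the others. RYK was lowest in library 4 at 79.9 TPM, against 81.1 to 81.2 TPM in the others. S100A6 was highest in library 1 at 3785 TPM, against 3330.2 to 3393 TPM in the others. SHANK2 was highest in library 2 at 1.07 TPM, against 0.915 to 0.934 TPM in the others. SMO was highest in library 2 at 9.07 TPM, against 8.02 to 8.12 TPM in the others. TNFSF9 was lowest in library 2 at 42.4 TPM, against 46.6 to 47 TPM in the others. TYRP1 was highest in library 1 at 0.261 TPM, against 0 to 0.0281 TPM in the others.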

How the results depend on the processing

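The number of expressed genes was 10013 to 13583 over the other minimums, scalings and read counts tried, against 12055, and 12089 to 12121 with a library left out. Of the 1659 listed genes 924 were expressed, with 735 to 1091 under the alternatives. Genes without reads numbered 3268, 3448 to 3494 with a library left out, and 4563 when 3 reads were allowed. The 100 highest genes held 32.8% of TPM, 24.6% after rescaling without mitochondrial and ribosomal protein genes, 17.7% of estimated reads, and 32.7 to 32.9% with a library left out. That rescaling raised the named levels 1.28 to 1.30 times, giving 6195 TPM for KRT5, 3192 for KRT14, 125 for TP63 and 149 for EGFR. With a library left out KRT5 stood at 4694 to 4869 TPM, KRT14 at 2383 to 2568, TP63 at 95.5 to 98.9 and EGFR at 106 to 125. Of the 71 list counts 59 stayed within 1.5 times at a minimum of 5 TPM and 62 with a minimum of 10 reads. Leukocyte markers went from 2 to 7, HOXD genes from 5 to 9 and integrin alpha genes from 7 to 13 with 10 reads. Without library 2 the platelet and erythroid count went from 0 to 1, and without library 3 the melanocyte count from 1 to 2. Alternatives for promoter features were not run, since 75.6% of genes matched a promoter symbol and the check is void under 80%. No paired analysis was possible because the result comes from no test. Low levels are the least certain: at 1 TPM length estimates and few reads limit precision, and the 4 libraries may share 1 culture.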

Other observations

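Gene families outside the lists, picked by symbol after their values were seen, held further large contrasts. Of 14 aquaporins, which are water and glycerol channels, AQP3 alone was expressed, 7.14%, at 1139.8, 1197, 1400.2 and 1341 TPM. The next, AQP1, stood at 0.52 ± 0.221 TPM, and 6 of the 14 had no reads. Of 15 kallikrein proteases 6 were expressed, 40%, with KLK10 at 77.3 ± 17.3 TPM and KLK8 at 29.8 ± 2.67 TPM after KLK5. Of 13 clade B serpins, many of which block proteases in squamous epithelium, 10 were expressed, 76.9%, with SERPINB5 (maspin) at 75.6 ± 8.22 TPM and SERPINB13 at 31.7 ± 5.6 TPM.

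Among 373 solute carriers 206 were expressed, 55.2%, near the background of 59.2% for all genes. The mitochondrial phosphate carrier SLC25A3 stood at 1284 ± 39.2 TPM, and SLC7A5 and SLC3A2, the light and heavy chain of a large neutral amino acid exchanger, at 833, 857, 893 and 844 TPM and at 537, 521, 515 and 527 TPM. Among 96 potassium channel genes 22 were expressed, 22.9%, and KCNK1 was the highest at 156, 158, 161 and 157 TPM. Of 361 T cell receptor and immunoglobulin segments 341 had no reads and 3 were expressed, the highest being IGLV5-52 at 13.5, 12.2, 11.2 and 10.8 TPM.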
